A study of Mus musculus with 16 samples.

Results

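The 7 transcripts studied here belong to the interleukin-10 (IL-10) and tumour necrosis factor (TNF) axes and were followed across 16 mouse microarrays. They were Il10, Il10ra, Il10rb, Tnf, Tnfrsf1a, Tnfrsf1b and Tnfaip3, chosen by name with earlier results of these data known. All 7 were among the 33269 gene names on the array. Of these names 16535 are gene symbols and the rest are identifiers without a matched symbol. Shares of all genes below count both kinds. Female C57Bl/6 mice were fed an atherogenic high-fat diet for 40 weeks, a model of liver cirrhosis per the labels, and this diet was shared by every group. Control mice were treated with phosphate-buffered saline (PBS). The other mice received adipose tissue-derived stem cells (ADSC), cultured from the inguinal fat of GFP-transgenic mice, at 100000 cells per injection, beneath the splenic capsule. The labels' wording of the injection schedule was read here as 2 injections in all, and it allows other readings. Samples were taken 2 weeks after the last injection. Total RNA was measured on 4 arrays in each of 4 groups, which were liver after PBS, liver after ADSC, hepatic inflammatory cells after PBS and hepatic inflammatory cells after ADSC. PBS samples carry the numbers 11 to 14, and ADSC samples 7 to 10, whichever the sample type.

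Nothing in the labels ties a number to a mouse, or assigns each array a mouse of its own. The p-values therefore measure the spread between samples, which may be technical. The promoter of the GFP transgene is not named, nor is the volume or schedule of PBS. The extraction protocol speaks of tumor-infiltrating cells and of blood, so the labels do not settle how the inflammatory cells were isolated, and sample type and isolation cannot be told apart.

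TNF is a cytokine made as a membrane protein, chiefly by activated macrophages, lymphocytes and neutrophils, and shed from the cell surface. It binds TNF receptor 1 (Tnfrsf1a), found on most cells and able to signal to NF-kB or to cell death, and TNF receptor 2 (Tnfrsf1b), found mainly on leukocytes and endothelium. NF-kB induces Tnfaip3, whose product A20 edits ubiquitin chains at the receptor complex and shuts the signal off. IL-10 is an anti-inflammatory cytokine of macrophages and lymphocytes. It binds a ligand-specific chain (Il10ra), largely confined to leukocytes, and a widely expressed chain (Il10rb) that also serves IL-22 and type III interferons, and it signals through STAT3 to limit the production of TNF and other cytokines.

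The promoters of Tnf and Tnfaip3 are shown because these NF-kB target genes were among the members with the largest differences between the sample types. Each sequence is the 250 bases upstream of the transcription start in RefSeq's GRCm38.p6 annotation, read 5′ to 3′ on the gene's strand. For Tnf this is chr17:35202008-35202257, minus strand, and for Tnfaip3 chr10:19015411-19015660, minus strand. The capitals mark TATAAA in both. In Tnfaip3 they also mark GGAATTTCC and 2 matches to the kappaB consensus, the binding motif of NF-kB.
Tnf: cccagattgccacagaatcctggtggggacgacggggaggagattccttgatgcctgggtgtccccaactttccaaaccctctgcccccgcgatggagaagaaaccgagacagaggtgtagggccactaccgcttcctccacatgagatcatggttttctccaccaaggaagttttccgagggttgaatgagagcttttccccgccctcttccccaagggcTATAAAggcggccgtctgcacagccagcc
Tnfaip3: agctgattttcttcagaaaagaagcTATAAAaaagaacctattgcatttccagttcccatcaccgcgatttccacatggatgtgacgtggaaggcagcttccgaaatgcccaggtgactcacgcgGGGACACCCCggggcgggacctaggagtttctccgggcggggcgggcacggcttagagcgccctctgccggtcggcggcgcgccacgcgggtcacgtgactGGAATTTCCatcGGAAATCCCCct
In Tnf, TATAAA starts 29 bases upstream of the transcription start. In Tnfaip3 it starts 225 bases upstream, the kappaB matches start at 125 bases (GGGACACCCC) and 12 bases (GGAAATCCCC, a match on the opposite strand), and GGAATTTCC at 24 bases. On either strand, the kappaB consensus was present in 3.9% of 32851 mouse promoter windows of this length, GGAATTTCC in 0.286% and TATAAA in 12.4%. TTCNNNGAA, the motif bound by STAT factors, was in 7.02% of windows, and TGANTCA, the AP-1 motif, in 6.75%. TTCNNNGAA was found at 244 bases in Tnfrsf1a and at 181 bases in Tnfrsf1b, and TGANTCA at 136 bases in Tnfaip3. The table held 5 windows for 4 of the 7 genes, including a second start of Tnfaip3 without any of these motifs. Il10, Il10ra and Il10rb had no entry.

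Levels are log2 array signals relative to the 75th percentile of the same array, so a level of 0 lies at that percentile and a difference of 1 is a doubling. They can be compared between samples for 1 probe and not between probes. Between 51.6% and 66.3% of the spots of an array were well above background, 0 spots were saturated, and the number of arrays limits the precision. The defining hepatocyte markers were high in liver (mean of 5 markers 5.57 ± 0.48 after PBS and 5.72 ± 0.27 after ADSC, SD, n = 4) and lower in inflammatory cells (0.32 ± 0.50 and 1.09 ± 0.54). The 3 general leukocyte markers ran the other way, at 5.22 ± 0.24 and 5.24 ± 0.10 in inflammatory cells against 2.76 ± 0.28 and 2.49 ± 0.24 in liver. Inflammatory cell arrays also carried erythroid markers (6.42 ± 0.47 and 7.31 ± 1.62) and exocrine pancreas markers, the latter at 6.32, 8.43 and 8.47 on PBS 11, PBS 13 and ADSC 10 and between -1.92 and 2.38 on the other 5. Of 6 NK and cytotoxic markers, Ncr1 and Eomes were well above background on 0 of 8 liver arrays, and Klrb1c, Prf1, Gzmb and Nkg7 on 7 or 8. Of 6 exocrine pancreas markers, Ctrb1 was on all 8 liver arrays and the other 5 on 0.

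Il10 and Tnf, the ligands, were both far higher in inflammatory cells than in liver. The Il10 level was 1.57, 2.01, 1.47 and 1.13 on inflammatory cells PBS 11 to 14 and 0.85, 0.33, 1.18 and 1.49 on inflammatory cells ADSC 7 to 10. In liver it was -5.52, -5.44, -5.66 and -5.71 on PBS 11 to 14 and -5.03, -5.51, -5.08 and -5.41 on ADSC 7 to 10. Il10 was not well above background on any of the 8 liver arrays, so its liver values carry only a bound, and liver was not tested for treatment. The group means in inflammatory cells were 1.55 ± 0.36 after PBS and 0.96 ± 0.50 after ADSC (SD, n = 4). Against the lowest signal called above background in liver, Il10 was at least 43.2-fold higher in inflammatory cells after PBS and at least 22.9-fold higher after ADSC. Over both treatments it was at least 31.5-fold higher. This bound is not strict, because some uncalled signals lay above that lowest signal. The limma fit of 16 arrays gave an adjusted p of 2.05e-13 (Benjamini-Hochberg over 22139 genes), which belongs to the fitted difference from the background readings in liver and not to this bound.

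Tnf was measurable in both sample types. Its level was 3.93, 3.07, 2.69 and 2.47 on inflammatory cells PBS 11 to 14 and 1.59, 3.06, 2.99 and 3.00 on inflammatory cells ADSC 7 to 10. In liver it was -2.19, -0.50, -2.71 and -1.72 on PBS 11 to 14 and -2.96, -3.34, -2.97 and -2.59 on ADSC 7 to 10, where ADSC 8 was not well above background. Every inflammatory cell array lay above every liver array, the highest of which was PBS 12. Tnf was 37.3-fold higher in inflammatory cells (log2 difference 5.22 ± 0.32, SE, adjusted p = 2.65e-10, limma), and the log2 difference ran from 3.97 to 5.57 over 30 alternatives. The order of group means was inflammatory cells PBS (3.04 ± 0.64), inflammatory cells ADSC (2.66 ± 0.72), liver PBS (-1.78 ± 0.95) and liver ADSC (-2.96 ± 0.31), and the arrays of the 2 treatments overlapped in both sample types.

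**Figure D1:**
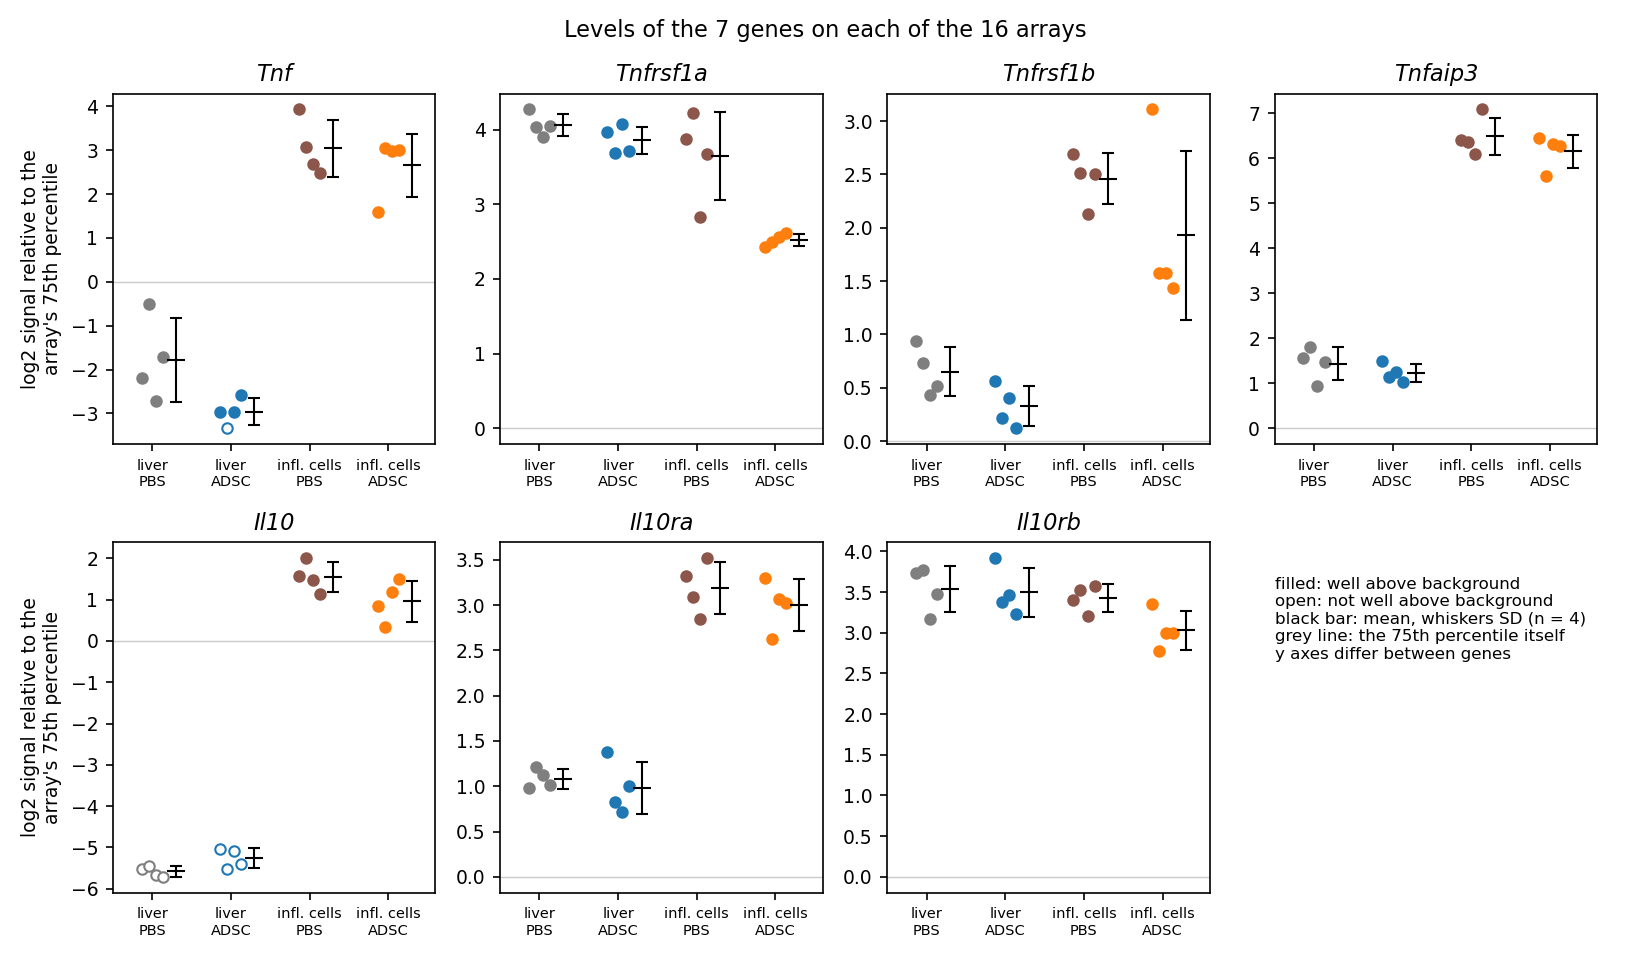
Each panel plots 1 gene, with the level (log2, relative to each array's 75th percentile) on the vertical axis, 1 point per array in each of the 4 groups (open where not well above background), a separate vertical scale per gene, and the group mean with its SD (n = 4) beside the points. Il10, Tnf, Tnfaip3, Il10ra and Tnfrsf1b sit higher in inflammatory cells than in liver, whereas the 4 Tnfrsf1a values of inflammatory cells after ADSC, at 2.43 to 2.61, lie below those of the other 3 groups.

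The receptors divided by subunit. Of the TNF receptors, Tnfrsf1a was higher in liver and Tnfrsf1b higher in inflammatory cells. The Tnfrsf1a level was 4.27, 4.04, 3.90 and 4.05 on liver PBS 11 to 14 and 3.97, 3.69, 4.07 and 3.72 on liver ADSC 7 to 10. On inflammatory cells PBS 11 to 14 it was 3.88, 4.22, 2.83 and 3.68, and on inflammatory cells ADSC 7 to 10 it was 2.43, 2.50, 2.56 and 2.61. Liver PBS (4.06 ± 0.15), liver ADSC (3.86 ± 0.18) and inflammatory cells PBS (3.65 ± 0.59) overlapped as neighbours, and inflammatory cells ADSC (2.52 ± 0.08) stood below all 3. Over both treatments Tnfrsf1a was 1.83-fold lower in inflammatory cells (log2 difference -0.88 ± 0.16, adjusted p = 0.000122, limma). Over 31 alternatives the difference ran from -0.99 to -0.44, with an adjusted p of at most 0.0224. Within PBS the difference was -0.41 ± 0.23 (adjusted p = 0.117) and within ADSC it was -1.34 ± 0.23 (adjusted p = 7.27e-05).

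Tnfrsf1b was measured by 2 probes. On the brighter probe, printed in 10 spots, its level was 0.94, 0.73, 0.43 and 0.52 on liver PBS 11 to 14 and 0.56, 0.22, 0.40 and 0.12 on liver ADSC 7 to 10. On inflammatory cells it was 2.69, 2.51, 2.13 and 2.50 for PBS 11 to 14 and 3.11, 1.58, 1.58 and 1.44 for ADSC 7 to 10. All inflammatory cell arrays exceeded all liver arrays, and within inflammatory cells ADSC 7 was the highest while the other ADSC arrays were the lowest. The difference between sample types was 3.26-fold (log2 1.70 ± 0.21, adjusted p = 1.38e-06, limma). The other probe, in 1 spot, ranged from -2.29 to -1.79 in liver and from -0.42 to 0.79 in inflammatory cells, also without overlap.

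For IL-10 the ligand-specific chain differed between the sample types, and the shared chain did not pass the test. The Il10ra level was 0.98, 1.21, 1.12 and 1.01 on liver PBS 11 to 14 and 1.38, 0.83, 0.72 and 1.00 on liver ADSC 7 to 10. On inflammatory cells it was 3.32, 3.09, 2.85 and 3.52 for PBS 11 to 14 and 3.30, 2.62, 3.07 and 3.02 for ADSC 7 to 10. Il10ra was thus 4.19-fold higher in inflammatory cells with no overlap (log2 2.07 ± 0.14, adjusted p = 1.02e-09, limma), and the treatments overlapped in each sample type. The Il10rb level was 3.73, 3.77, 3.17 and 3.48 on liver PBS 11 to 14 and 3.92, 3.38, 3.46 and 3.23 on liver ADSC 7 to 10. In inflammatory cells it was 3.40, 3.53, 3.21 and 3.58 for PBS 11 to 14 and 3.35, 2.77, 3.00 and 3.00 for ADSC 7 to 10. The sample types overlapped, and the difference was -0.29 ± 0.14 (95% interval -0.58 to 0.01, adjusted p = 0.0668, limma). Its direction turned under other scalings of the arrays, to 0.14 with quantile normalization, 0.09 with normexp and quantile normalization and 0.06 with the percentile taken over detected probes. Within ADSC, Il10rb passed as lower (-0.47 ± 0.20, adjusted p = 0.04).

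Tnfaip3 followed the ligands. Its level was 1.56, 1.8, 0.93 and 1.48 on liver PBS 11 to 14 and 1.5, 1.14, 1.26 and 1.04 on liver ADSC 7 to 10. On inflammatory cells it was 6.41, 6.36, 6.09 and 7.09 for PBS 11 to 14 and 6.45, 5.62, 6.33 and 6.27 for ADSC 7 to 10. The transcript of A20 was therefore 31.7-fold higher in inflammatory cells, with no overlap (log2 4.99 ± 0.18, adjusted p = 1.51e-12, limma), while PBS and ADSC arrays overlapped in both sample types.

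In all, 6 of the 7 genes passed between the sample types, 5 higher and 1 lower, with Il10 entering the fit through inflammatory cells alone, where 84.4% of all 22139 genes tested passed (48.9% higher and 35.5% lower). For 5 of the 7 genes the inflammatory cell arrays lay entirely above the liver arrays, against 33.9% of all genes. The median difference of the 7 genes was 2.07, and that of all genes 0.35, a value that ran from 0.13 to 0.70 under the other scalings of the arrays. Within PBS 5 of the 7 passed (75.9% of all genes), and within ADSC 7 of the 7 (78.6%). In whole tissue and in a cell fraction alike, fewer cells of a type and less RNA per cell cannot be told apart.

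After ADSC treatment, liver showed no member past the threshold. Of the 6 genes tested, 0 passed, as did 0% of the 17321 genes tested in liver. At an unadjusted p under 0.05 there was 1 of 6, Tnf, against 4.65% of all genes. Tnf was lower by -1.18 ± 0.43 on the log2 scale after ADSC (95% interval -2.16 to -0.21, unadjusted p = 0.0231, adjusted p = 0.998, limma). The difference rested in part on PBS 12, without which it was -0.76. It was -0.25 with slide or scan day as a term in the fit. Both of these values set PBS 13 alone, the PBS array with the lowest Tnf level, against ADSC arrays. These were ADSC 7 on its slide, and ADSC 7 and 9 on its scan day. For the other liver arrays, treatment cannot be told apart from slide or scan day. The remaining differences were -0.33 ± 0.15 for Tnfrsf1b (95% interval -0.67 to 0.02), -0.21 ± 0.20 for Tnfaip3, -0.20 ± 0.13 for Tnfrsf1a, -0.10 ± 0.15 for Il10ra and -0.04 ± 0.19 for Il10rb, each with an adjusted p of 0.998. All 6 estimates were below 0, where 39.7% of all genes were. For 5 of them, all but Tnf, the sign turned with slide as a fixed term, which leaves 1 PBS and 1 ADSC liver array on a common slide.

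Among the liver PBS arrays, the neutrophil, monocyte and macrophage, and cholangiocyte marker means ranked the arrays as Tnf did. PBS 12 was highest and PBS 13 lowest. Among the liver ADSC arrays their order differed from that of Tnf. The mean level of 9 neutrophil markers was 1.83, 4.25, 0.56 and 2.80 on liver PBS 11 to 14 and -0.40, -1.15, -1.74 and -0.79 on liver ADSC 7 to 10. Their summed signal ranged from 86.2 to 711 after PBS and from 17.2 to 45.6 after ADSC, in multiples of the 75th percentile. All 8 markers tested had estimates below 0, beside 39.7% of all genes, and all 8 had an unadjusted p under 0.05 (limma), beside 4.65%. After adjustment 0 passed, as did 0% of all genes. Elane, which was not tested, was well above background on 2 of 4 liver PBS arrays and 0 of 4 liver ADSC arrays. The other 8 were well above background on 4 of 4 PBS arrays and on 3 or 4 of 4 ADSC arrays.  The mean of 7 monocyte and macrophage markers was 1.31 ± 0.65 after PBS and 0.71 ± 0.35 after ADSC, with 0 of 7 past the threshold. On liver PBS 11 to 14 it was 1.02, 2.18, 0.67 and 1.35. On liver ADSC 7 to 10 it was 1.2, 0.62, 0.37 and 0.64. For 3 cholangiocyte markers the mean was 0.31, 2.01, -0.35 and 1.42 on liver PBS 11 to 14. It was 0.87, 0.34, 0.29 and 0.68 on liver ADSC 7 to 10, with 0 of 3 past the threshold. The part of these cell types in the Tnf difference was not tested.

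**Figure D2:**
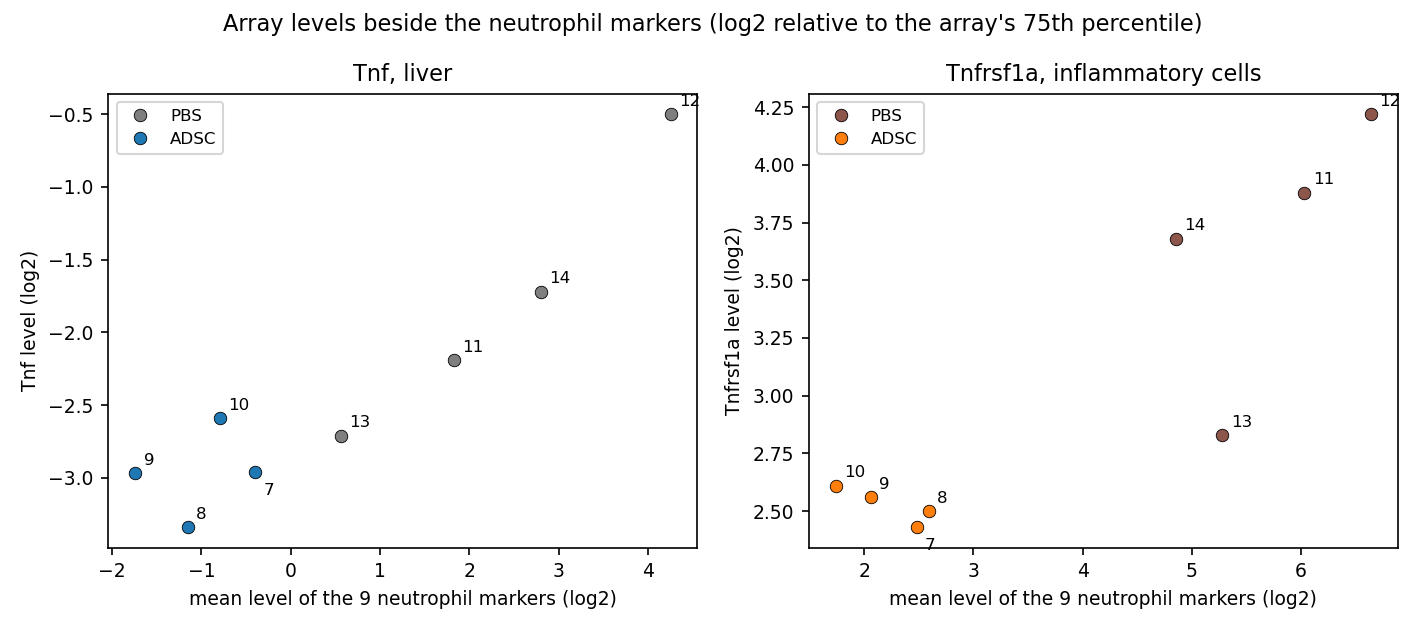
The left panel plots the Tnf level of each liver array and the right panel the Tnfrsf1a level of each inflammatory cell array, both log2 relative to the array's 75th percentile, against the mean level of 9 neutrophil markers, with numbers naming the arrays. In liver, PBS 12 is highest on both axes (4.25 and -0.50). In inflammatory cells the 4 ADSC arrays lie lowest on both. PBS 13 (2.83) lies nearest to them on the Tnfrsf1a axis. On the neutrophil axis the nearest is PBS 14 (4.85), with a Tnfrsf1a level of 3.68. Within the ADSC arrays, ADSC 10 has the highest Tnfrsf1a level (2.61) and the lowest neutrophil mean (1.74).

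In inflammatory cells, 0 of the 7 genes passed between ADSC and PBS, where 1.21% of all 20165 genes tested did, 1.07% as lower. Tnfrsf1a came nearest. It was 2.18-fold lower after ADSC (log2 difference -1.13 ± 0.29, 95% interval -1.76 to -0.49, unadjusted p = 0.00244, adjusted p = 0.0962, limma), and its ADSC arrays (2.43 to 2.61) lay below its PBS arrays (2.83 to 4.22). It was the 1 gene of the 7 without overlap, and 6.68% of all genes had every ADSC array below every PBS array. It was also the 1 of 7 at an unadjusted p under 0.05, against 18.4% of all genes. PBS 13, the lowest PBS array, bears on the call: without it the difference was -1.40 with an adjusted p of 0.0233. Over 22 alternatives the difference ran from -1.58 to -0.92 with an adjusted p between 0.00474 and 0.28, and it passed in 5. These were slide as a random block (-1.29, adjusted p = 0.0248), normexp with the 75th percentile, array weights, the fit of all 16 arrays, and leaving out PBS 13.

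Within a slide, the Tnfrsf1a difference between 1 ADSC and 1 PBS array was -1.38 on slide 2 and -1.79 on slide 3. Within a scan day it was -1.58 on day 2 (2 arrays against 2) and -0.25 on day 3 (2 ADSC arrays against PBS 13 alone). No other slide or day held inflammatory cells of both treatments. The difference was smaller where PBS 13 was the sole control array.

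The other members in inflammatory cells had differences of -0.59 ± 0.29 for Il10 (adjusted p = 0.307), -0.53 ± 0.36 for Tnfrsf1b (adjusted p = 0.437), -0.40 ± 0.21 for Il10rb (adjusted p = 0.329), -0.38 ± 0.40 for Tnf (adjusted p = 0.646), -0.32 ± 0.28 for Tnfaip3 (adjusted p = 0.556) and -0.19 ± 0.24 for Il10ra (adjusted p = 0.698), all from limma. The 95% intervals were -1.23 to 0.06 for Il10 and -1.27 to 0.51 for Tnf, so these data do not show that either ligand was unaltered. All 7 estimates were below 0, as were 47.2% of all genes, with exceptions under quantile scaling, where Il10ra stood at 0, and under normexp with quantile scaling, where it stood at 0.02 and Tnfaip3 at 0.01. ADSC 8 held the lowest inflammatory cell level of Il10 (0.33), Il10ra (2.62), Il10rb (2.77) and Tnfaip3 (5.62). It was also the dimmest of these arrays, with a 75th percentile of 123.8 against 227 to 510 on the others.

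ADSC 7 weighed on Tnf and Tnfrsf1b. It held the lowest Tnf level of the inflammatory cell arrays, 1.59 against 2.99 to 3.06 on the other ADSC arrays, and without it the Tnf difference was -0.02. Leaving out PBS 11, the highest at 3.93, gave -0.08. For Tnfrsf1b the same array was the highest, at 3.11 against 1.44 to 1.58, and without it the difference was -0.93 (adjusted p = 0.0574). The other Tnfrsf1b probe read 0.33, 0.18, 0 and -0.42 on ADSC 7 to 10 and -0.03, 0.14, 0.79 and 0.22 on PBS 11 to 14, with a difference of -0.26. On that probe ADSC 7 did not stand apart. ADSC 7 also had the lowest erythroid marker mean of the 8 arrays, 4.88 against 8.02 to 8.22 on the other ADSC arrays and 6.00 to 7.09 on PBS arrays. Its Kupffer cell (-0.21), exocrine pancreas (-1.92) and monocyte and macrophage (1.41) marker means were the lowest as well. So, narrowly, were its dendritic cell (-1.07) and mast cell and basophil (-0.96) means. Its B cell mean (2.16) was narrowly the highest. The part of these cell types in these values was not tested.

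**Figure D3:**
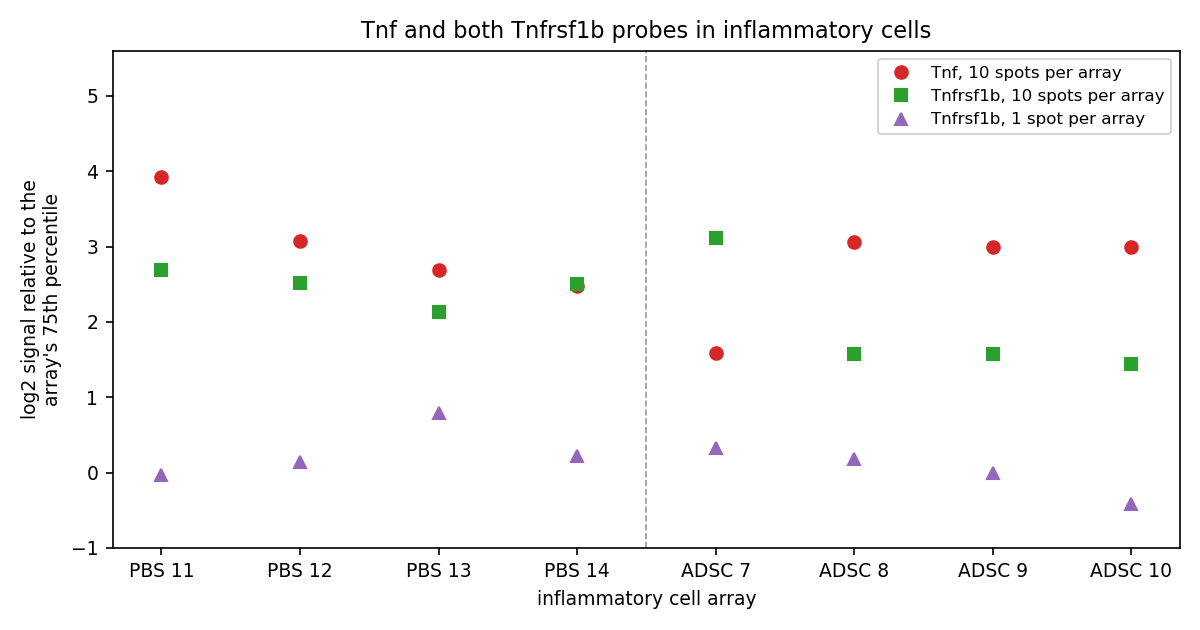
Each inflammatory cell array is a position on the horizontal axis, PBS on the left of the dashed line and ADSC on the right, and the vertical axis gives the level (log2, relative to each array's 75th percentile) of Tnf and both Tnfrsf1b probes. On ADSC 7, Tnf (1.59) is the lowest and the 10-spot Tnfrsf1b probe (3.11) the highest of its series, while the 1-spot probe (0.33) stays near its neighbours.

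Myeloid markers differed between the same groups as Tnfrsf1a. In inflammatory cells the 9 neutrophil markers averaged 6.03, 6.64, 5.28 and 4.85 on PBS 11 to 14 and 2.48, 2.59, 2.06 and 1.74 on ADSC 7 to 10. Of the 9, 8 passed as lower after ADSC, beside 1.07% of all genes. The summed signal of the 9 was 1200 to 2490 after PBS and 387 to 584 after ADSC. Elane was well above background on 4 of 4 PBS arrays and on 1 of 4 ADSC arrays. The 7 monocyte and macrophage markers averaged 2.92 ± 0.10 after PBS and 1.65 ± 0.16 after ADSC, with 2 of 7 passing as lower and a summed signal of 124 to 186 against 33.1 to 50.7. Kupffer cell markers averaged 2.23 ± 0.65 and 0.64 ± 0.69, with 1 of 6 passing as lower. Mast cell and basophil markers averaged -0.03 ± 0.51 and -0.79 ± 0.21, with 1 of 4 passing as lower. None of these marker calls held with slide as a fixed term, where 0 of all genes passed. B cell markers averaged 0.90 ± 0.47 and 1.99 ± 0.28, and T cell markers 1.83 ± 0.48 and 1.88 ± 0.26, with 0 of either list past the threshold. All 5 B cell markers tested had estimates above 0. Of these, 4 had an unadjusted p under 0.05 (limma), beside 18.4% of all genes, against 0 of 6 T cell markers. The part of these cell types in the Tnfrsf1a difference was not tested.

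The difference between the 2 treatment effects, inflammatory cells minus liver, was tested directly. It passed for 0 of the 7 genes, as for 0.0316% of all 22139 genes, and 10.1% of all genes had an unadjusted p under 0.05. Il10 gave no measured difference of effects, since its liver values lay below background. Of the other 6 genes, Tnfrsf1a had an unadjusted p under 0.05 (-0.92 ± 0.33, unadjusted p = 0.0128, adjusted p = 0.384, limma). The estimate was below 0 for 5 of these 6, against 52.2% of all genes, and above 0 for Tnf (0.81 ± 0.63, 95% interval -0.54 to 2.15). No treatment effect of a member was thus shown to differ between inflammatory cells and liver.

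**Figure D4:**
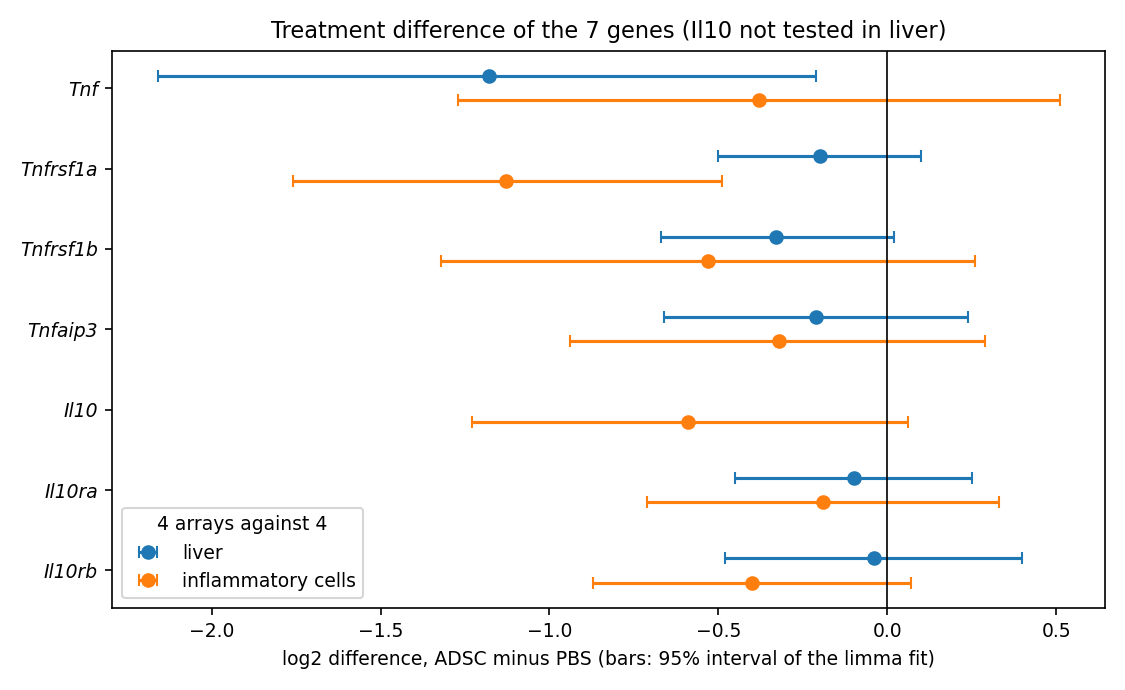
The horizontal axis gives the log2 difference, ADSC minus PBS, for each gene in liver and in inflammatory cells, with 95% intervals of the limma fits of 4 arrays against 4. The intervals of Tnf in liver (-2.16 to -0.21) and of Tnfrsf1a in inflammatory cells (-1.76 to -0.49) lie below 0 before adjustment for the number of genes; the others include 0, and Il10 has no value in liver.

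Around the 7 genes, 9 lists of TNF and IL-10 pathway genes were read out in the same fits. Between sample types 73 of 120 pathway genes passed as higher in inflammatory cells and 21 as lower, beside 48.9% and 35.5% of all genes. As with Il10, some of these genes entered the fit through inflammatory cells alone. A higher call for them rests on background readings in liver. They were 3 of the TNF superfamily neighbours, 2 of the TNF-inducible genes and 2 of the IL-10 family. The shedding and mRNA control list and the IL-10-inducible list held 1 each. The TNF superfamily neighbours of Tnf gave 12 higher and 2 lower of 17 (median 3.30, or 2.08 with genes below background in liver set at their bound). Examples were the B cell survival receptor Tnfrsf13c (5.36 ± 0.26), Tnfsf14, the LIGHT ligand (4.15 ± 0.25), and the T cell costimulator Tnfrsf4 (3.42 ± 0.17). Lta, the neighbouring lymphotoxin gene, also passed, with levels of -0.62 and -0.13 in inflammatory cells and 1 of 8 liver arrays above background.

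Genes that control TNF release and mRNA gave 7 higher and 3 lower of 12 (median 0.62). Zfp36, whose product tristetraprolin destabilises Tnf mRNA, was higher by 4.68 ± 0.29. The mean of its relative Zfp36l2 lay 1.75-fold above its bound in liver. Zfp36l2 was measured on 5 of 8 inflammatory cell arrays, and the mean includes those not above background. Timp3, an inhibitor of the TNF sheddase, was lower (-2.97 ± 0.31), as was Rhbdf1, a partner of that sheddase (-2.04 ± 0.14). The receptor complex and cell death list was evenly divided, with 7 higher and 7 lower of 19 (median 0.03). Within it the necroptosis kinase Ripk3 was higher (3.08 ± 0.17) and its effector Mlkl lower (-2.06 ± 0.13), and the caspase-8 regulator Cflar (1.18 ± 0.11) and the adaptor Tab2 (1.09 ± 0.12) were higher. NF-kB kinases, subunits and inhibitors gave 11 higher and 1 lower of 15 (median 0.66). The higher genes included the inhibitors and modulators Nfkbiz (4.47 ± 0.19), Nfkbia (3.49 ± 0.18) and Nfkbie (2.15 ± 0.20), and the lower gene was the kinase scaffold Ikbkg (-1.52 ± 0.12).

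TNF-inducible genes gave 14 higher and 3 lower of 20 (median 2.19). Ptgs2, the inducible cyclooxygenase, was at least 74.5-fold and the cytokine Il6 at least 47.4-fold higher in inflammatory cells, both below background on all 8 liver arrays. The neutrophil chemokine Cxcl2 passed at levels of 5.26 and 3.72 in inflammatory cells after PBS and ADSC, with 3 of 8 liver arrays above background. Csf2, the GM-CSF gene, passed at levels of 0.64 and 0.51 in inflammatory cells and 1 of 8 liver arrays above background. Many stimuli besides TNF induce these genes.

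On the IL-10 side, receptor signalling genes gave 4 higher and 3 lower of 11 (median 0.05). The feedback inhibitors Socs3 (3.27 ± 0.20) and Socs1 (2.79 ± 0.21) and the phosphatase Ptpn6 (1.61 ± 0.14) were higher and the phosphatase Ptpn11 lower (-1.16 ± 0.11). IL-10-inducible genes gave 10 higher and 1 lower of 13 (median 1.52, or 1.41 with bounds). Next to Zfp36 and Socs3, which are on 2 lists each, they included the repressor Nfil3 (3.56 ± 0.21) and the mTOR inhibitor Ddit4 (2.60 ± 0.22). Transcription factors of the Il10 gene gave 8 higher and 1 lower of 12 (median 2.57), with Tbx21 (3.65 ± 0.15), Batf (3.42 ± 0.17) and Nfil3 higher. Irf4 also passed, at levels of 0.12 and 1.30 in inflammatory cells with 1 of 8 liver arrays above background. Of the IL-10 family, 3 of 5 tested were higher and 0 lower (median 1.53, or 1.20 with bounds). The mean of Il22 lay 2.3-fold and that of the receptor gene Il22ra1 2.38-fold above their bounds in liver. Each was measured on 6 of 8 inflammatory cell arrays, and the means include the arrays not above background. Il19 (1.53 ± 0.59, adjusted p = 0.0237, limma) was above background on only 4 of 16 arrays. Il19 lost its call with array weights (0.61, adjusted p = 0.347), quantile normalization (0.79, adjusted p = 0.191), normexp and the 75th percentile (0.43, adjusted p = 0.062) and without liver PBS 12 (1.29, adjusted p = 0.0528), and turned to -0.03 under normexp with quantile normalization.

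After ADSC in inflammatory cells, 4 of 118 pathway genes passed, all lower, beside 1.07% of all genes lower, and 26 had an unadjusted p under 0.05, beside 18.4% of all genes. Tnfaip6, a TNF-stimulated hyaluronan-binding protein, was lower by -2.29 ± 0.32 (adjusted p = 0.00931), with 2 of 4 ADSC arrays above background. Il1b, the cytokine interleukin-1 beta, had levels of 6.55 ± 0.75 after PBS and 4.62 ± 0.24 after ADSC (-1.93 ± 0.34, adjusted p = 0.0259). Arg2, the mitochondrial arginase, had levels of 1.96 ± 0.68 and 0.02 ± 0.40 (-1.94 ± 0.35, adjusted p = 0.0261). Mlkl, the necroptosis effector, had levels of -0.75 ± 0.32 and -1.92 ± 0.22 (-1.18 ± 0.23, adjusted p = 0.039). For all 4, which were named for passing this same comparison, every ADSC array lay below every PBS array, as for 6.68% of all genes. Arg2 lost its call without any one of PBS 11, PBS 12, PBS 13, ADSC 8, ADSC 9 or ADSC 10 (adjusted p 0.0529 to 0.0951), and Il1b without any one of PBS 11, PBS 12, ADSC 8, ADSC 9 or ADSC 10 (0.0574 to 0.0922). Mlkl lost it without any single array but ADSC 7 (0.0518 to 0.133). Tnfaip6 kept its call when any 1 array was left out, but lost it under normexp with the 75th percentile (-0.82, adjusted p = 0.0985), with slide as a fixed term (adjusted p = 0.0511) and without the 3 pancreas-rich arrays (adjusted p = 0.137). The neutrophil and monocyte markers given above moved with these genes, and their part was not tested.

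By list, the medians after ADSC in inflammatory cells were -0.47 for TNF-inducible genes (2 lower of 19), -0.33 for IL-10-inducible genes (1 lower of 13), -0.21 for Il10 transcription factors (0 of 12), -0.12 for TNF superfamily neighbours (0 of 17) and for NF-kB genes (0 of 15), -0.10 for the IL-10 family (0 of 4), -0.04 for the receptor complex (1 lower of 19), 0.02 for shedding and mRNA control (0 of 12) and 0.07 for IL-10 receptor signalling (0 of 11), beside 0.03 for all genes. The genes nearest the threshold in the lists without a second call were Tnfsf14 (-1.16 ± 0.30, adjusted p = 0.0968), Tnfrsf13c (1.45 ± 0.40, adjusted p = 0.118), the IL-1 receptor antagonist Il1rn (-1.53 ± 0.37, adjusted p = 0.0831) and the receptor-interacting kinase Ripk1 (-0.66 ± 0.20, adjusted p = 0.156). Further differences were -0.69 for Mapkapk2, -0.59 for Rhbdf2, -0.64 for Nfkbiz, 0.55 for Relb, -0.52 for Ptpn6, -0.33 for Socs3, -1.35 for Ifnlr1, 0.65 for Il22, -0.92 for Nfil3 and 1.18 for Irf4, with adjusted p between 0.199 and 0.563.

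In liver 0 of 101 pathway genes passed between ADSC and PBS, as did 0% of all genes, and 11 of them had an unadjusted p under 0.05, beside 4.65% of all genes. The smallest unadjusted p values belonged to Il20rb, a receptor chain of the IL-10 family (-1.01 ± 0.15, adjusted p = 0.267), the chemokine Cxcl1 (-1.34 ± 0.24, adjusted p = 0.559), Nfkbiz (-1.03 ± 0.21, adjusted p = 0.581) and Zc3h12a, the RNase Regnase-1 (-1.31 ± 0.28, adjusted p = 0.741). Zc3h12a was above background on 4 of 4 liver PBS arrays and 1 of 4 liver ADSC arrays, so its difference is largely from background readings. Among the others with an adjusted p of 0.998 were Il1b (-1.48), Socs3 (-0.79), Ltb (-0.71), Ripk3 (-0.54), Tnfsf10 (-0.50), Nfil3 (-0.45), Bcl3 (-0.38), Rhbdf2 (-0.36), Ptpn6 (-0.29), Ifnlr1 (-0.28), Casp8 (-0.18) and Creb1 (0.29). List medians ran from -0.65 for the 2 IL-10 family genes tested to -0.02 for the Il10 transcription factors, beside 0.04 for all genes. The difference between the treatment effects passed for 0 of 120 pathway genes, with 9 at an unadjusted p under 0.05, beside 10.1% of all genes. Its smallest p values were those of Mlkl (-1.07 ± 0.26, adjusted p = 0.165) and Cxcl1 (1.90 ± 0.61, adjusted p = 0.335). Ripk1 (-0.59), Il20rb (1.08), Tnfrsf13c (0.98), Hmox1 (-0.61), Ltb (0.69), Il1rn (-0.93), Zc3h12a (1.07), Relb (0.80), Ifnlr1 (-1.07), Mapkapk2 (-0.48), Stat3 (0.56), Socs3 (0.46) and Gata3 (0.56) had adjusted p between 0.388 and 0.722. Gata3 was above background on 3 of 8 liver arrays, and Zc3h12a on 1 of 4 liver ADSC arrays, as given above. Ptgs2 (0 of 8 liver arrays above background), Irf4 and Rel (1 of 8 each) gave no measured difference of effects.

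**Figure D5:**
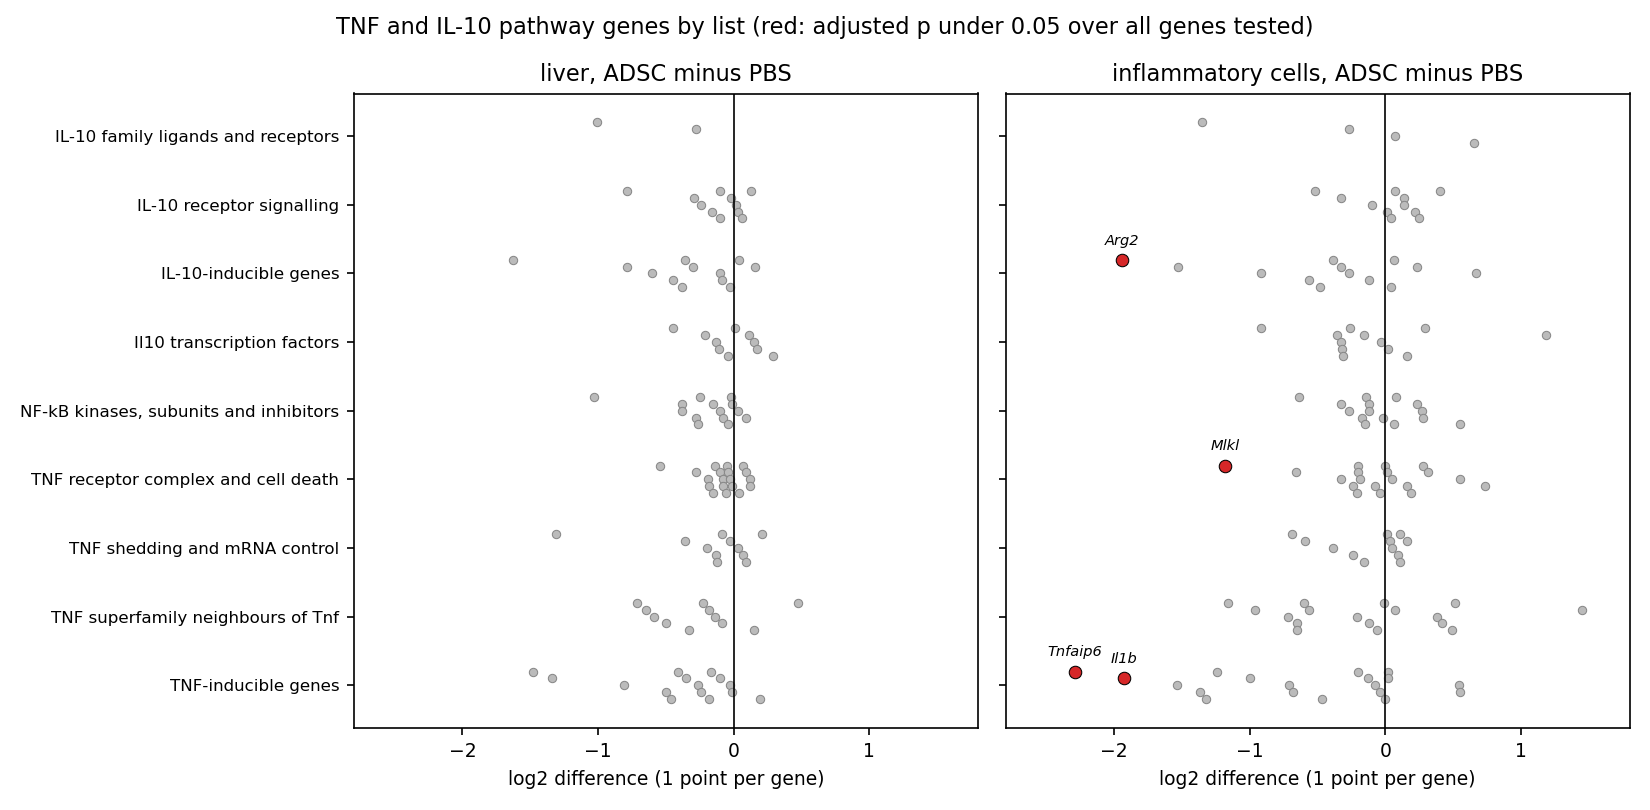
Each row is 1 of the 9 pathway lists and each point 1 gene, placed on the horizontal axis by its log2 difference, ADSC minus PBS, in liver on the left and in inflammatory cells on the right. The 4 genes past the threshold, marked in red, all lie to the left of 0 in inflammatory cells, and liver has none.

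The transcripts whose pattern over the 16 arrays lay nearest to Il10 were the immediate-early receptor Nr4a1, the chemokine-binding receptor Ccrl2 and the macrophage chemokine Ccl3. Their levels, centred on the mean, differed from those of Il10 by a root mean square of 0.45, 0.51 and 0.52 on the log2 scale, beside an SD of 3.47 for Il10 itself. The 8 liver values of Il10 were not above background, so the likeness there is to background readings. Nearest to Tnf were Pmaip1, a pro-apoptotic BCL2 family gene (0.53), the kinase Pim1 (0.54) and Nfkbiz (0.56), beside an SD of 2.80 for Tnf. All 6 were higher in inflammatory cells, by 4.47 to 7.00, so the likeness describes chiefly the contrast of sample types.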

How the data were processed

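Total RNA of 16 samples was hybridised to one-colour arrays (Cy3). Per the file headers, the deposited processed signal is a background-subtracted intensity from Feature Extraction 10.5.1.1, with no scaling between arrays. The median spot and background intensities, also deposited, served an alternative. The deposited value table held the same intensity values (largest relative difference 0, array medians 30.6 to 90.9, so linear and uncentred). Levels were computed here as log2 of the deposited intensity minus each array's 75th percentile, taken over 41174 non-control probes. Outlier spots (71 to 124 per array) were dropped, spots of a probe averaged, and the probe with the highest mean taken per gene. Accessions matched to the GRCm38.p6 annotation named 23374 probes. Genes whose probe stood well above background on 4 or more arrays of a fit were tested with limma 3.58.1 in R 4.3.3 (lmFit, eBayes), adjusted by Benjamini-Hochberg over all genes tested, at a threshold of 0.05. Treatment was fitted on the 8 arrays of each sample type. Sample type and the difference of treatment effects were contrasts of 4 group means over 16 arrays. A bound ("at least") sets the mean of all bright arrays against the dim arrays' values. The latter were raised to the lowest signal well above background of any probe on the same array. Uncalled signals can exceed that lowest signal, so the bound is not strict. Tnfsf12 averaged -3.44 on liver ADSC arrays and was called on 0 of 4, where the bound of Il10 lay at -3.56.

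The members and the 9 pathway and 15 marker lists were chosen with earlier results of these data known. The text names every member and, per pathway list and comparison, up to 4 passing genes by smallest p, or the 2 with the smallest p where fewer than 2 passed. Likeness is the smallest root mean square difference of centred levels. Alternatives changed the background correction (normexp, offset 50), scaling, filter, probes, slide, scan day, array weights, arrays left out and pairing; the other Tnfrsf1b probe was added after seeing the data. The fits were tested on simulated data. The number shared between sample types was not taken as a pairing.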

Additional observations from a re-analysis of the deposited data

Results flagged for a closer look

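Among the 32 sets of 4 arrays examined (8 probes in 4 groups), 2 held an array that stood far from the other 3 by Dixon's test, which chance does in about 5% of such sets. Both values come from inflammatory cells ADSC 7. The Tnf level there was 1.59, against 2.99 to 3.06 on the other ADSC arrays. The Tnfrsf1b level on the 10-spot probe was 3.11, against 1.44 to 1.58. On the 1-spot probe of Tnfrsf1b the same array read 0.33, against -0.42 to 0.18.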

How the results depend on the processing

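Of 709 values of the 27 member results under the alternatives, 661 kept their direction and side of the threshold, 12 became calls, 0 lost one and 36 changed sign; of 2257 values of 84 results for listed genes the counts were 2179, 23, 40 and 15. In liver, 0 members passed under all 21 alternatives. In inflammatory cells, where 0 passed, the count was 1 with normexp and the 75th percentile (Tnfrsf1a -1.24, adjusted p = 0.0351), 1 with slide as a random block (-1.29, adjusted p = 0.0248), 1 in the fit of all 16 arrays (-1.13, adjusted p = 0.0142) and 3 with array weights (Tnfrsf1a -1.34, adjusted p = 0.00474; Tnfrsf1b -0.88, adjusted p = 0.0322; Il10rb -0.50, adjusted p = 0.0401). It was 0 to 1 when each array was left out, 1 without PBS 13. For the difference of treatment effects, 1 member passed with array weights (Tnfrsf1a -1.09, adjusted p = 0.0195) and 0 otherwise. Between sample types 4 to 7 passed; the lower count has fewer genes tested (well above background on every array), and Il10rb was the seventh with normexp and the 75th percentile (-0.41) or without liver PBS 13 (-0.35), liver ADSC 10 (-0.33) or inflammatory cells ADSC 7 (-0.34). Fitted Il10 differences between sample types ran from 3.25 to 7.02. Over all genes, calls in inflammatory cells ran from 0 with slide as a fixed term to 4393 with array weights, against 243; in liver from 0 to 34, against 0; between sample types from 10437 to 26008, against 18678; and for the difference of effects from 0 to 954, against 7, with 14 higher and 51 lower under normexp and quantile normalization against 0 and 7. Tnfaip6 lost its call under normexp with the 75th percentile (-0.82), with slide as a fixed term (-2.68) and without the 3 pancreas-rich arrays (-2.20), where Il1b (-1.5), Arg2 (-1.71) and Mlkl (-1.22) also did; Il1b passed in 13 of 22 alternatives, Arg2 in 12 and Mlkl in 8.

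The sign of the liver difference changed with slide as a fixed term for Il10ra (0.26), Il10rb (0.75), Tnfaip3 (0.57), Tnfrsf1a (0.07), Tnfrsf1b (0.14), Casp8 (0), Ifnlr1 (0.52), Il1b (0.29), Ltb (0.49), Ptpn6 (0.42), Rhbdf2 (0.10), Ripk3 (0.07) and Tnfsf10 (0.03). With scan day as a fixed term, where only liver PBS 13 shared a day with ADSC arrays, it changed for Il10rb (0.52), Tnfaip3 (0.45), Tnfrsf1a (0.12), Tnfrsf1b (0.05), Ifnlr1 (0.25), Il1b (0.09), Ltb (0.06), Ptpn6 (0.24), Rhbdf2 (0.17) and Tnfsf10 (0). It changed for Il10rb with slide as a random block (0.06) and without PBS 11 (0.02), PBS 12 (0.04) or ADSC 10 (0.05), with a range of -0.18 to 0.05 when each array was left out, and for Tnfrsf1b with its other probe (0.15). In inflammatory cells it changed for Il10ra (0.02) and Tnfaip3 (0.01) under normexp and quantile normalization and for Il10ra (0) under quantile normalization. Between sample types it changed for Il10rb under normexp and quantile (0.09), quantile (0.14) and the percentile of detected probes (0.06), and for Il19 under normexp and quantile (-0.03). For the difference of effects it changed for Il10ra and Tnfaip3 under normexp and quantile (0.07 and 0.22), quantile (0.10 and 0.15), the percentile of detected probes (0.06 and 0.04), and without inflammatory cells PBS 14 (0.02 and 0.09) or ADSC 8 (0.04 and 0.07). It also changed for Il10ra without liver ADSC 7 (0.04), for Tnfaip3 without liver PBS 13 (0.06), with ranges of -0.21 to 0.04 for Il10ra and -0.25 to 0.09 for Tnfaip3 when each array was left out, and for Il10ra and Tnfrsf1b with slide (0.04 and 0.18) or scan day (0.09 and 0.03) as a fixed term. The cause was not tested.

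Deviations of samples of the same number correlated weakly (r from -0.0607 to 0.169 over 8 pairs, 1 above 0.1). Of the 8 liver samples, 4 were best matched with their own number among the 4 inflammatory cell arrays of the same treatment. These values do not settle whether a number marks a shared animal, and the labels do not say. With the replicate block 6 members passed between sample types and 0 for the difference of effects, as without it. Signal over background limits Il10 in liver.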
